A study of Danio rerio with 12 samples.

Results

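The genes described here were 97 protein-coding nuclear genes of the zebrafish heart whose annotated span overlapped no gene of any kind on the opposite strand. They were chosen by position, not by level, among 400 genes that held values in all 12 libraries of a table of 32520 genes. Of those 400, 333 were protein-coding and 321 of these lay outside the mitochondrial genome. Another 213 of the 321 overlapped a gene on the opposite strand, and 108 did not. A further 11 of these were set aside by name, which left 97. The position rule held in the table for all 97, of which 50 lay on the plus strand and 47 on the minus strand. They were spread over 24 chromosomes, with 4 on unplaced contigs. Another 20454 coding nuclear genes without opposite-strand overlap were not analysed here, so the 97 are not a sample of all such genes.

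Hearts came from Tg(myl7:ATF3) fish aged 12 months post-fertilization (mpf), wild-type siblings aged 12 mpf, Tg(myl7:ATF3) fish aged 4 mpf and wild-type siblings aged 4 mpf. Each of the 4 groups had 3 biological replicates, and the comparison was meant to show early and later effects of ATF3 in the heart. The transgene was driven by the myl7 promoter, which is active in heart muscle cells, whereas the RNA came from whole cardiac tissue. The labels say nothing of founders, pooling of animals or sex.

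ATF3 is a transcription factor of the basic leucine zipper family that cells switch on under stress. RNA was sequenced from the 3′ end of polyadenylated transcripts, on the sense strand, by priming on the poly(A) tail. In that assay a gene is read from a short stretch before its tail, and a transcript of the opposite strand that covers that stretch can be told from it only by strand. Whether reads were counted by strand is not stated in the sources used here. Genes whose spans meet no opposite gene avoid that overlap within the annotation, though not beyond its ends.

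Values were FPKM, a measure of fragments per transcript length that the authors scaled for each library. The reads behind them were recovered as whole numbers for all 400 genes, and summed to between 133852 and 1092280 per library. Cytosolic ribosomal RNA took 18.01 to 41.3% of those reads in the 6 libraries of 12 mpf and 82.7 to 90.4% in the 6 libraries of 4 mpf. The mitochondrial gene mt-nd6 took 37.1 to 55.1% of them at 12 mpf and 3.49 to 10.5% at 4 mpf. The 97 genes together held 5754, 6440 and 7356 reads in transgenic hearts at 12 mpf, and 6872, 6846 and 4301 in wild-type hearts at 12 mpf. At 4 mpf they held 4713, 4615 and 3973 reads in transgenic hearts and 4270, 4311 and 5128 in wild-type hearts. A change in bulk tissue cannot tell apart fewer cells of a type and less RNA per cell. No molecular identifiers are named for these libraries, so several reads may be copies of 1 molecule.

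The mean FPKM over the 12 libraries ranged from 2.12 for spag7 to 703 for psph, with a median of 17.3. The highest gene, psph, codes for phosphoserine phosphatase, the enzyme of the last step of serine synthesis (chr15:413543-419597, minus strand, GRCz11). It had 793, 790.2 and 737 FPKM in transgenic hearts at 12 mpf, against 991, 725 and 896 FPKM in wild-type hearts at 12 mpf. At 4 mpf it had 601, 583 and 364 FPKM in transgenic hearts, against 595, 218 and 1139 FPKM in wild-type hearts. Both genotypes overlapped at both ages, and the 3 wild-type hearts of 4 mpf spanned the widest range. The log2 difference of transgenic minus wild-type hearts was -0.07 (SE 0.49, adjusted p = 0.977 by limma) at 4 mpf and -0.16 (SE 0.49, adjusted p = 0.999) at 12 mpf.

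The gene with the most reads in 11 of the 12 libraries was dtwd1, which codes for a tRNA-modifying enzyme in mammals (chr18:5454341-5461423, plus strand). Its level per length averaged 390.4 FPKM over the 12 libraries, with 528, 536 and 552 FPKM in transgenic and 543, 407 and 486 FPKM in wild-type hearts of 12 mpf. At 4 mpf it had 239, 179 and 341 FPKM in transgenic hearts, against 499, 120.1 and 255 FPKM in wild-type hearts. The genotypes overlapped at each age, and the 3 transgenic hearts of 12 mpf lay above the 3 of 4 mpf. A similar mean of 421 FPKM was found for eif1b, which codes for a start-codon selection factor of translation (chr24:32517915-32522655, minus strand). FPKM divides by transcript length, recovered as 896 bases for eif1b and 5221 for dtwd1, though the assay reads only a short stretch. In transgenic hearts of 12 mpf eif1b had 63, 237 and 374 reads, against 1103, 1369 and 1471 for dtwd1. Ranks by FPKM are therefore not ranks by reads. The order of these genes by FPKM differed between groups, since dtwd1 had the higher mean in 3 of the 4 and eif1b in wild-type hearts of 12 mpf. For eif1b the values were 176, 541 and 818 FPKM in transgenic and 781, 1022 and 457 FPKM in wild-type hearts of 12 mpf. At 4 mpf it had 133, 245 and 154 FPKM in transgenic and 176, 184 and 367 FPKM in wild-type hearts. Every wild-type heart of 12 mpf exceeded every wild-type heart of 4 mpf, but the difference of 1.64 on the log2 scale (SE 0.56) had an adjusted p of 0.117 by limma. Next among the genes with a symbol came trpc4apa, the gene of a protein that binds TRPC4 channels in mammals, with a mean of 213 FPKM. Then followed tmem50a at 99.97 FPKM, gins1 of the replicative helicase at 94.5 FPKM, btf3 of the nascent-chain complex at 94.0 FPKM and napga of vesicle fusion at 89.9 FPKM. The other genes among the 10 highest had no symbol. The 5 highest genes held between 16.9 and 53.7% of the reads of the 97 genes in a library.

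**Figure D1:**
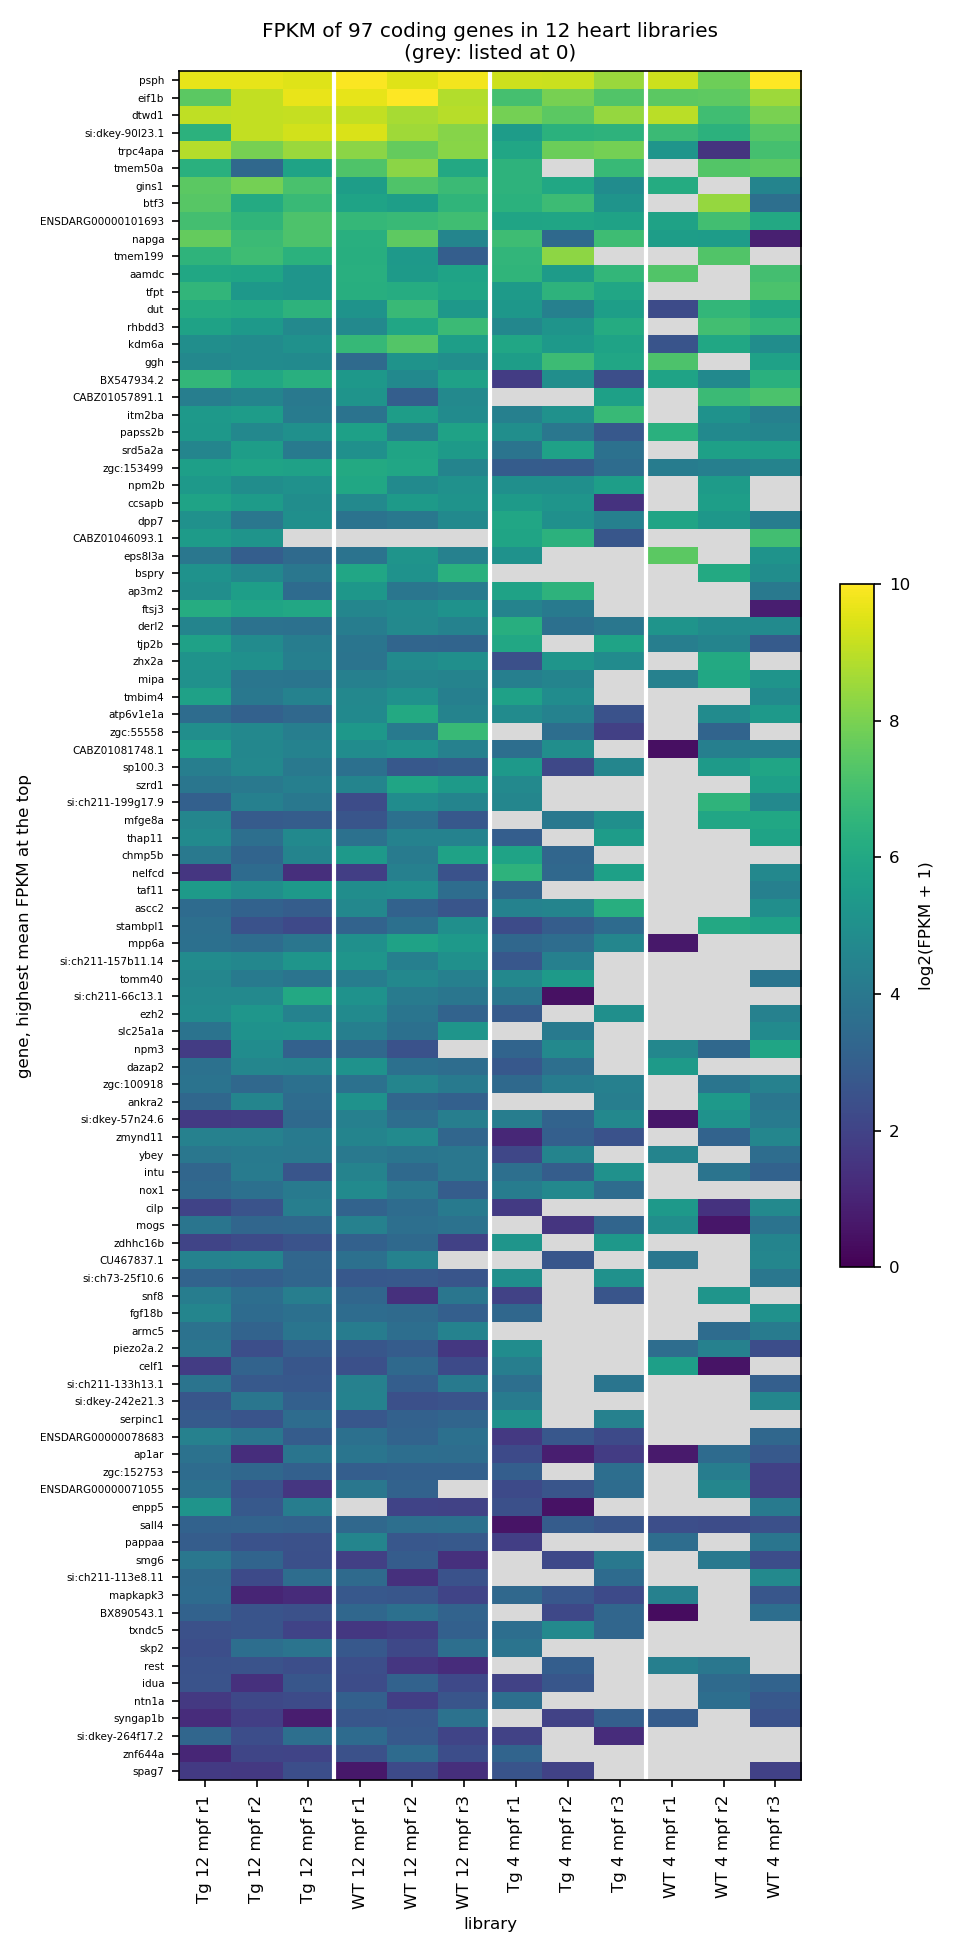
Level of each of the 97 genes (rows, highest mean at the top) in each of the 12 libraries (columns, by genotype, age and replicate r1 to r3), as log2(FPKM + 1), with grey for a value listed at 0. The grey fields lie almost entirely in the 6 libraries of 4 mpf, where 14 to 59 genes were listed at 0, against 0 to 4 in the libraries of 12 mpf.

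Whether a gene was listed at 0 followed age. In transgenic hearts of 12 mpf 0, 0 and 1 of the 97 genes were listed at 0, and in wild-type hearts of 12 mpf 2, 1 and 4. In transgenic hearts of 4 mpf the numbers were 14, 29 and 34, and in wild-type hearts of 4 mpf 59, 43 and 19. Both genotypes overlapped at 4 mpf, and every library of 4 mpf exceeded every library of 12 mpf. Over all genes with values, 0.75 to 2.25% were at 0 in libraries of 12 mpf and 11.5 to 48.25% in those of 4 mpf. The pattern was therefore not particular to the 97 genes. Only 17 of the 97 genes (17.5%) were above 0 in all 12 libraries, against 77 of the 213 coding genes that overlap an opposite gene (36.2%), whose median level was also higher, at 27.6 against 17.3 FPKM. Whether the difference in level bears on those shares was not tested. All 97 genes reached 1 FPKM in at least 3 libraries, and each was above 0 in at least 6.

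The zeros did not come with more genes of few reads. In transgenic hearts of 12 mpf 19, 19 and 12 genes had 1 to 9 reads, and in wild-type hearts of 12 mpf 15, 12 and 25. At 4 mpf that band held 14, 5 and 9 genes in transgenic and 5, 4 and 5 genes in wild-type hearts. Genes above 0 had a median of 28, 22 and 23.5 reads in transgenic hearts of 12 mpf and 27, 25.5 and 18 in wild-type hearts of 12 mpf. In hearts of 4 mpf the medians were 31, 37 and 35 reads in transgenic and 54.5, 51.5 and 35 in wild-type hearts. So the libraries with the most zeros, replicates 1 and 2 of the wild-type hearts of 4 mpf, had the highest median reads among the genes they did hold. The part of the ribosomal RNA share in this pattern was not tested.

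**Figure D2:**
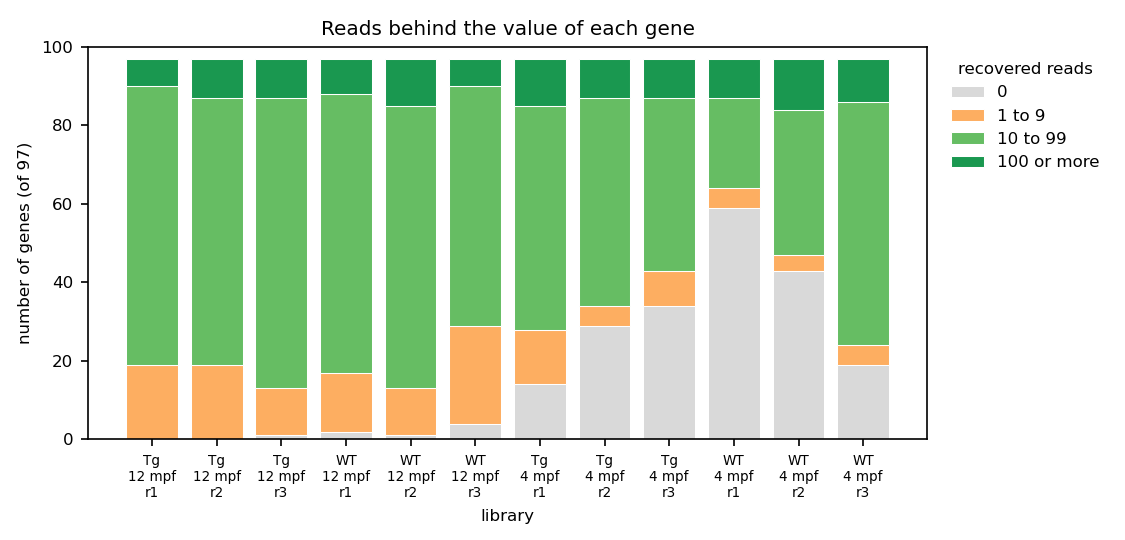
Number of the 97 genes (y axis) with 0, 1 to 9, 10 to 99 and 100 or more recovered reads in each library (x axis, by genotype, age and replicate). The grey bar of genes at 0 reached 59 in replicate 1 of the wild-type hearts of 4 mpf, while the orange bar of 1 to 9 reads was at most 5 in all 3 libraries of that group.

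Replicates ordered the 97 genes alike at 12 mpf and less so at 4 mpf. Spearman's rho between replicates, across the 97 genes and given as a description, was 0.783 to 0.805 in transgenic and 0.735 to 0.790 in wild-type hearts of 12 mpf. It was 0.348 to 0.473 in transgenic and 0.167 to 0.287 in wild-type hearts of 4 mpf. The spread within groups (residual SD on the log2 scale) had a median of 1.59 over the 97 genes, 0.86 over the 17 always above 0 and 1.44 over all 400 genes. Among these 17, the steadiest genes with a symbol were dtwd1 (residual SD 0.57), psph (0.64) and sall4, a transcription factor of stem cells (0.66). The most variable with a symbol were napga (1.85), trpc4apa (1.54), dut of dUTP removal (1.31) and ap1ar of adaptor transport (1.09).

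Most of the 97 genes, but not all, lay close to the 3′ end of a gene on the other strand, and 34 lay over 5000 bases away or had none. For 63 of the 97 (64.9%) another gene's 3′ end, on the opposite strand, lay within 5000 bases beyond their own 3′ end, facing them tail to tail. Of the 20454 coding nuclear genes without overlap and not analysed here, 19.0% had such a neighbour. Within 1000 bases the shares were 29.9% of the 97 and 4.17% of the others. The median distance was 1793 bases for the 97 genes and 29184 bases for the others, while the median gene span was similar, at 12750 and 13053.5 bases. These are counts over the annotation and were given no test.

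The shortest distance was 2 bases, between psph and nipsnap2. It was 11 bases for nox1 and cstf2, 34 for snf8 and calcoco2, 37 for cilp and eif3jb, 67 for tfpt and mrpl51 and 73 for rest and noa1. Among other genes described here, chmp5b lay 133 bases from fastkd3, si:ch211-157b11.14 315 from rereb, armc5 483 from cox6a2 and trpc4apa 1556 from myh7ba. Since the strand setting is not stated, whether reads of such neighbours enter the values is uncertain and was not tested. Grouped by distance, the 29 genes under 1000 bases had a median level of 17.3 FPKM, the 34 genes at 1000 to 5000 bases 20.9 FPKM and the 34 farther genes 13.5 FPKM. Of these, 1, 8 and 8 genes were above 0 in every library.

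**Figure D3:**
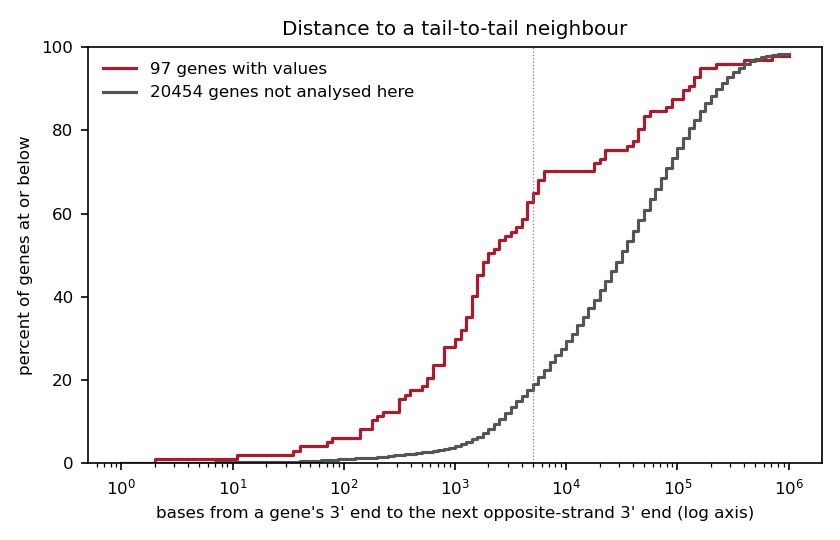
Cumulative percentage of genes (y axis) by the distance in bases, on a log axis, from a gene's 3′ end to the next 3′ end on the opposite strand. Red is the 97 genes, and grey is the 20454 coding nuclear genes without opposite-strand overlap that were not analysed here. At the dotted line of 5000 bases the red curve had reached 64.9% and the grey curve 19.0%.

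Both partners of a tail-to-tail couple were among the 97 genes in 2 cases. On chromosome 5, ankra2 (chr5:34981584-34987273, plus strand) and btf3 (chr5:34987448-34997630, minus strand) ended 175 bases apart. At 4 mpf btf3 had 82.5, 116 and 35.5 FPKM in transgenic hearts, against 0, 345 and 11.5 FPKM in wild-type hearts. For ankra2 the values were 0, 0 and 18.5 FPKM in transgenic hearts and 0, 40.4 and 14.1 FPKM in wild-type hearts. Both were therefore at 0 in the same wild-type library and highest in the same wild-type library, but not so in transgenic hearts. The shared 0 fell in wild-type replicate 1, where 59 of the 97 genes were at 0, so it says little of this couple. On chromosome 24, napga (chr24:947473-982443, minus strand) and piezo2a.2, of a mechanosensitive channel (chr24:854877-945921, plus strand), ended 1552 bases apart. In transgenic hearts of 4 mpf napga had 117, 9.57 and 119 FPKM, against 46.4, 45.1 and 0.841 FPKM in wild-type hearts. For piezo2a.2 the values were 27.7, 0 and 0 FPKM in transgenic hearts of 4 mpf and 11.00, 20.2 and 4.20 FPKM in wild-type hearts. Here replicate 3 of the transgenic hearts was the highest for napga and at 0 for piezo2a.2.

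At 4 mpf 3 of the 97 genes passed the test between genotypes, and all 3 were higher in transgenic hearts. They code for a superoxide-producing NADPH oxidase (nox1), a protein disulfide isomerase of the endoplasmic reticulum (txndc5) and a membrane scaffold of the MAGUK family (mpp6a). Across all 400 genes 3.25% passed (2.75% higher and 0.5% lower in transgenic hearts), so 3 of 97 is close to the background. The median log2 difference was 0.26 over the 97 genes and 0.25 over all 400, and 52 of the 97 were positive (53.6%), against 56.5% of all 400. The groups did not overlap for 4 of the 97 genes, 3 higher and 1 lower in transgenic hearts, against 12% of all 400 (7.25% higher and 4.75% lower).

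The gene nox1 (chr14:41345175-41361847, plus strand) had 17.2, 24.4 and 10.6 FPKM in transgenic hearts of 4 mpf and was listed at 0 in all 3 wild-type hearts. Those values rested on 29, 47 and 15 reads, and the 3′ end of nox1 lay 11 bases from that of cstf2 on the opposite strand. The gene txndc5 (chr24:7941373-7957581, minus strand) had 11.4, 25.0 and 8.84 FPKM in transgenic hearts of 4 mpf, from 20, 50 and 13 reads, and was also listed at 0 in all 3 wild-type hearts. For mpp6a (chr16:21442362-21489641, minus strand) the transgenic hearts of 4 mpf had 9.25, 11.01 and 22.8 FPKM, from 31, 42 and 64 reads, against 0.569, 0 and 0 FPKM in wild-type hearts. The groups were apart for all 3 genes. The log2 differences were 4.13 for nox1 (SE 0.74, adjusted p = 0.0101 by limma), 3.88 for txndc5 (SE 0.67, adjusted p = 0.00920) and 3.62 for mpp6a (SE 0.72, adjusted p = 0.0158). They depend on the pseudocount of 1 FPKM, since the wild-type hearts were at or near 0. Wild-type hearts at 0 throughout add no spread to the SE, which in all 3 genes lay below the median of 1.22 over the 97 genes. At 0 in at least 2 of the 3 wild-type hearts of 4 mpf were 39 of the 97 genes (40.2%), these 3 included, and 43 and 59 of the 97 were at 0 in the wild-type replicates 2 and 1.

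Another 13 genes had an unadjusted p under 0.05 at 4 mpf and did not pass, which made 16 of 97 in all, against 18.5% of all 400 genes. Among them cilp, the gene of a cartilage matrix protein, had 2.22, 0 and 0 FPKM in transgenic hearts of 4 mpf, against 41.1, 1.75 and 25.2 FPKM in wild-type hearts. The groups overlapped by 1 library, and the log2 difference was -3.29 (SE 1.09, adjusted p = 0.177 by limma). The genes bspry and armc5 were listed at 0 in all 3 transgenic hearts of 4 mpf. In wild-type hearts bspry had 0, 65.7 and 28.6 FPKM and armc5 0, 10.5 and 16.7 FPKM. Replicate 1 of the wild-type hearts was at 0 for both, so the groups overlapped. Their log2 differences were -3.65 and -2.56 (adjusted p = 0.190 and 0.209 by limma).

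Higher values in transgenic hearts that did not pass were found for serpinc1 of antithrombin, with 32.5, 0 and 19.9 FPKM in transgenic hearts of 4 mpf and 0 in all 3 wild-type hearts (log2 difference 3.15, adjusted p = 0.184 by limma). The transcription pausing factor gene nelfcd had 87.6, 9.47 and 50.7 FPKM in transgenic hearts of 4 mpf, against 0, 0 and 24.1 FPKM in wild-type hearts. For ascc2, of a coactivator and repair complex, the values were 20.8, 21.6 and 76.9 FPKM in transgenic hearts and 0, 0 and 29.9 FPKM in wild-type hearts. For npm2b, of a histone chaperone, they were 30.5, 30.3 and 48.3 FPKM in transgenic hearts and 0, 43.8 and 0 FPKM in wild-type hearts. In each of these last 3 genes a single wild-type library lay within the transgenic range. The log2 differences of nelfcd, ascc2 and npm2b were 3.63, 3.43 and 3.36 (adjusted p = 0.197, 0.194 and 0.215 by limma).

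The genes nox1, txndc5 and mpp6a stayed past the threshold when any of the 12 libraries was left out, but none of the 97 genes passed with libraries weighted by quality or with the 6 libraries of 4 mpf fitted alone, and mpp6a also missed it with a pseudocount of 5 FPKM (log2 difference 1.84). The number of passing genes was 5, 7 and 7 without wild-type replicate 1, 2 and 3 of 4 mpf, and 5 and 6 without transgenic replicate 2 and 3 of 4 mpf, with cilp, bspry, armc5, serpinc1, ascc2, nelfcd and npm2b each passing in 1 of these.

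**Figure D4:**
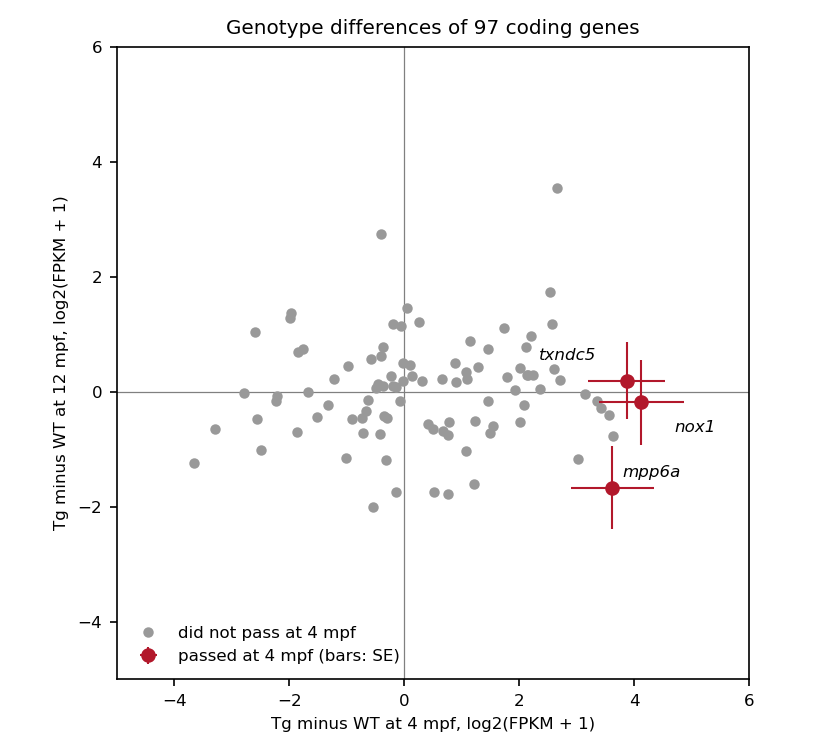
Difference of transgenic minus wild-type hearts at 4 mpf (x axis) and at 12 mpf (y axis), both on the log2(FPKM + 1) scale, for each of the 97 genes. The 3 genes that passed at 4 mpf are in red with bars of 1 SE, and lay between 3.62 and 4.13 on the x axis and between -1.67 and 0.19 on the y axis.

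At 12 mpf none of the 97 genes passed by limma, and none of all 400 did (0%). An unadjusted p under 0.05 was reached by 2 of the 97, against 3.25% of all 400. Voom on the recovered reads also called 0 of the 97, with 1 at an unadjusted p under 0.05, and its share over all 400 is not given here. The median log2 difference was 0.04 over the 97 genes and 0.07 over all 400. The groups did not overlap for 18 of the 97, 9 in each direction, against 20% of all 400 genes (11.5% higher and 8.5% lower).

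The smallest p belonged to mpp6a, with 11.8, 10.6 and 14.3 FPKM in transgenic hearts of 12 mpf, against 31.2, 52.8 and 41.6 FPKM in wild-type hearts. The groups were apart, with a log2 difference of -1.67 (SE 0.72, adjusted p = 0.999 by limma). The histone demethylase gene kdm6a had 29.4, 27.1 and 32.3 FPKM in transgenic hearts of 12 mpf, against 102, 158 and 47.4 FPKM in wild-type hearts, also without overlap (log2 difference -1.60, SE 0.90, adjusted p = 0.999 by limma). The gene syngap1b, of a synaptic Ras GTPase activator, had 1.39, 2.64 and 0.724 FPKM in transgenic hearts of 12 mpf, against 5.35, 5.53 and 12.8 FPKM in wild-type hearts. For atp6v1e1a, of the proton pump of acidic organelles, the transgenic hearts had 10.7, 7.65 and 9.42 FPKM, against 26.2, 66.2 and 20.9 FPKM in wild-type hearts. In these 4 genes the 3 transgenic hearts of 12 mpf lay below the 3 wild-type hearts, and none passed. The spans of kdm6a and syngap1b meet genes of their own strand, as do those of 11 of the 97 genes in all, so reads shared with those are uncertain.

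In the other direction ftsj3, the gene of a ribosomal RNA processing factor, had 71.4, 56.8 and 62.2 FPKM in transgenic hearts of 12 mpf, against 23.3, 26.3 and 33.2 FPKM in wild-type hearts (log2 difference 1.18, SE 1.09, adjusted p = 0.999 by limma). The gene enpp5, of the nucleotide pyrophosphatase family, had 34.9, 5.91 and 17.9 FPKM in transgenic hearts of 12 mpf, against 0, 2.99 and 2.90 FPKM in wild-type hearts. For tjp2b, of a tight junction scaffold, the transgenic hearts had 52.0, 27.4 and 17.7 FPKM, against 13.9, 8.60 and 8.36 FPKM in wild-type hearts. The transgenic hearts were the higher ones in all 3 genes, without overlap. The log2 differences of enpp5 and tjp2b were 2.75 (SE 1.19) and 1.46 (SE 1.42), both with an adjusted p of 0.999 by limma. The genes with the smallest p at 12 mpf also held znf644a, without overlap, and eif1b and smg6, whose groups overlapped. Their log2 differences were -1.03, -0.74 and 1.14, each with an adjusted p of 0.999 by limma. The SE pools the spread of both ages. At 4 mpf ftsj3 had 20.9, 16.2 and 0 FPKM in transgenic and 0, 0 and 0.808 FPKM in wild-type hearts. At that age tjp2b had 62.8, 0 and 55.3 FPKM in transgenic and 18.6, 21.7 and 6.38 FPKM in wild-type hearts, so transgenic replicate 2 was its only value at 0. With the 6 libraries of 12 mpf fitted alone 12 of the 97 genes had an unadjusted p under 0.05 and 0 passed. The share of all genes with values under that fit is not given here, so the count of 12 has no background.

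The only gene of the 97 whose genotypes were apart at both ages was mpp6a, in opposite directions. At single ages the genotypes were apart for 12% of all 400 genes at 4 mpf and 20% at 12 mpf. The share of all 400 genes apart at both ages was not computed, so this count has no background. The gene mpp6a was higher in all 3 transgenic hearts at 4 mpf and lower in all 3 at 12 mpf. The test of the difference between both genotype effects (12 mpf minus 4 mpf) gave -5.29 on the log2 scale (SE 1.02, adjusted p = 0.0482 by limma), and was passed by 0.5% of all 400 genes. An unadjusted p under 0.05 was reached by 7 of the 97, against 8.25% of all 400. In transgenic hearts mpp6a averaged 12.3 ± 1.89 FPKM at 12 mpf and 14.4 ± 7.38 FPKM at 4 mpf (SD, n = 3 each). In wild-type hearts it averaged 41.9 ± 10.8 FPKM at 12 mpf (SD, n = 3), against 0.569, 0 and 0 FPKM at 4 mpf. The log2 difference of 12 minus 4 mpf was -0.12 in transgenic hearts (SE 0.72, adjusted p = 0.942) and 5.17 in wild-type hearts (SE 0.72, adjusted p = 0.00253). The test of the difference between effects was no longer passed in 14 of 21 alternatives, 9 of which left out a library (any of the 6 of 12 mpf, transgenic replicate 1 or 3 of 4 mpf, or wild-type replicate 2 of 4 mpf). Over the 21 alternatives its value lay between -7.35 and -3.26, with an adjusted p up to 0.260. The span of mpp6a also holds an rRNA gene of the same strand.

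The same test was not passed by nox1 (-4.31, adjusted p = 0.151 by limma), txndc5 (-3.68, 0.176), chmp5b (-4.21, 0.515) or nelfcd (-4.40, 0.579). Over both ages together none of the 97 genes passed by limma, against 1% of all 400 (0.75% higher and 0.25% lower), with 6 of the 97 at an unadjusted p under 0.05, against 10.8% of all 400. Voom on the recovered reads also called 0, with 10 at an unadjusted p under 0.05. The shares of all 400 genes under voom and with a library left out are not given here. The smallest adjusted p was that of txndc5, with a log2 difference of 2.03 (SE 0.47, adjusted p = 0.0712). Its transgenic hearts had 4.65, 5.08 and 3.04 FPKM at 12 mpf, against 2.07, 2.56 and 7.47 FPKM in wild-type hearts, which overlapped. For nox1 the values at 12 mpf were 9.69, 11.9 and 16.4 FPKM in transgenic hearts and 26.6, 15.3 and 6.80 FPKM in wild-type hearts, which overlapped too. Over both ages the log2 differences were 1.97 for nox1, -2.44 for bspry, -1.97 for cilp and 1.87 for ftsj3. None of them passed (adjusted p = 0.117, 0.321, 0.336 and 0.352 by limma). Without transgenic replicate 3 of 4 mpf 2 genes passed over both ages, txndc5 and ftsj3, and 1 or 2 passed without transgenic replicate 2 or wild-type replicate 1, 2 or 3 of 4 mpf.

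**Figure D5:**
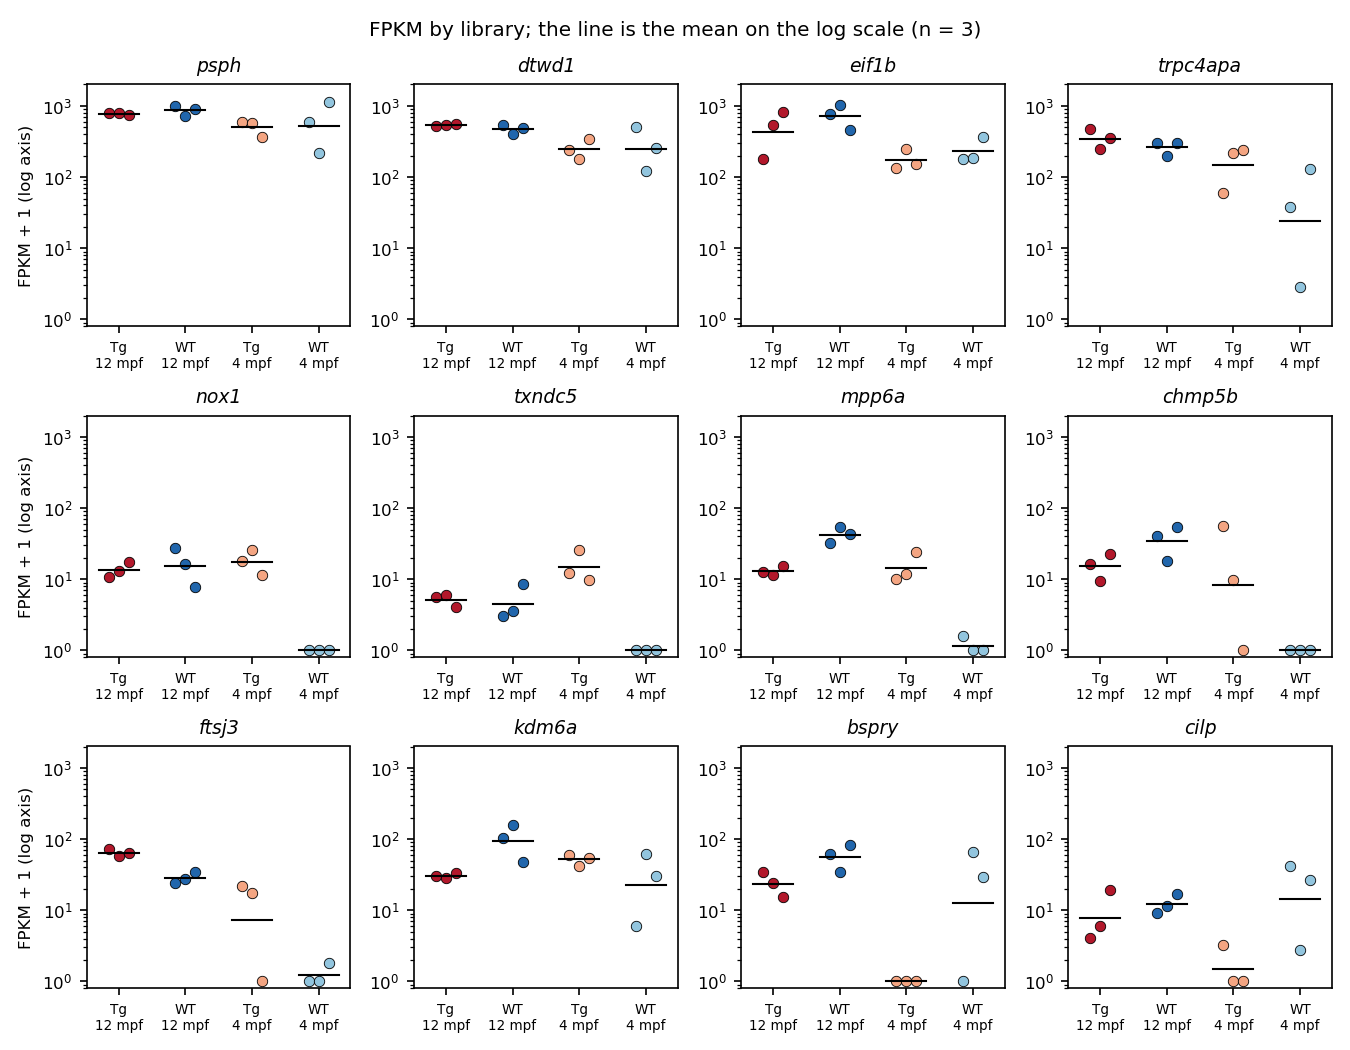
FPKM plus 1 on a log axis for 12 of the genes, by group (x axis, transgenic and wild-type hearts of 12 mpf, then of 4 mpf), with a point for each library and a line for the mean on the log scale (n = 3). In wild-type hearts of 4 mpf, nox1, txndc5 and chmp5b lie on the baseline of 0 FPKM in all 3 libraries, and in transgenic hearts of 4 mpf bspry does.

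Between the ages most of the 97 genes had higher values at 12 mpf, as had most of all 400 genes. In wild-type hearts 81 of the 97 log2 differences of 12 minus 4 mpf were positive (83.5%), against 74.5% of all 400. The median was 1.41 over the 97 genes and 1.03 over all 400. In transgenic hearts 71 of the 97 were positive (73.2%), against 66.5% of all 400, with medians of 1.13 and 0.64. In wild-type hearts 7 of the 97 passed, all higher at 12 mpf, against 4% of all 400 (3% higher and 1% lower). The groups did not overlap for 21 of the 97, 20 of them higher at 12 mpf, against 24.2% of all 400 (16.8% higher and 7.5% lower). An unadjusted p under 0.05 was reached by 23 of the 97, against 23% of all 400. All 7 genes were at 0 in at least 2 of the 3 wild-type hearts of 4 mpf, and 5 of them in all 3, beside a ribosomal RNA share of 82.7 to 90.4% in the hearts of 4 mpf and 18.01 to 41.3% in those of 12 mpf. Age, this share and that of mt-nd6, which was higher at 12 mpf, cannot be told apart.

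The largest log2 difference among the 7 was that of mpp6a, at 5.17 (SE 0.72, adjusted p = 0.00253 by limma), and it passed in all 22 alternatives. The next was chmp5b, the gene of an ESCRT subunit that sorts cargo in endosomes (chr7:59046524-59054322, minus strand). It had 39.9, 17.1 and 54.0 FPKM in wild-type hearts of 12 mpf and was listed at 0 in all 3 of 4 mpf. The log2 difference was 5.10 (SE 1.22, adjusted p = 0.0400). The gene ftsj3 (chr22:3184500-3214544, plus strand) had 23.3, 26.3 and 33.2 FPKM in wild-type hearts of 12 mpf, against 0, 0 and 0.808 FPKM at 4 mpf (log2 difference 4.54, SE 1.09, adjusted p = 0.0400). For nox1 the log2 difference was 3.93 (SE 0.74, adjusted p = 0.0165). For these 4 genes all 3 wild-type hearts of 12 mpf lay above all 3 of 4 mpf, whereas the transgenic hearts of both ages overlapped for mpp6a, chmp5b and nox1. The span of chmp5b overlaps that of another coding gene of the same strand, so reads shared between them are uncertain.

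The other 3 genes had clone names and are given because of their values. The gene si:ch211-157b11.14 had 36.0, 18.8 and 31.2 FPKM in wild-type hearts of 12 mpf, si:ch211-66c13.1 had 33.2, 16.8 and 14.3 FPKM and si:dkey-264f17.2 had 10.2, 5.98 and 3.09 FPKM, and all 3 were listed at 0 in every wild-type heart of 4 mpf. Their log2 differences were 4.84, 4.40 and 2.77 (adjusted p = 0.0180, 0.0324 and 0.0431 by limma). The last 2 lie on the long arm of chromosome 4 (chr4:67786391-67909331 and chr4:68922112-68965221), a region rich in near-identical gene copies, and si:ch211-66c13.1 overlaps another coding gene of its strand, so their counts are uncertain. The call of si:dkey-264f17.2 was lost in 12 of 21 alternatives, that of si:ch211-66c13.1 in 10 of 22 and that of si:ch211-157b11.14 in 5 of 22. Leaving out wild-type replicate 1, 2 or 3 of 12 mpf, or wild-type replicate 1 of 4 mpf, ended each of the 3 calls.

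The number of genes that passed in wild-type hearts depended on single libraries. Leaving out wild-type replicate 1, 2 or 3 of 12 mpf gave 1, 1 and 2 genes, and leaving out wild-type replicate 1 or 3 of 4 mpf gave 2 and 19. Leaving out transgenic replicate 1, 2 or 3 of 12 mpf, which enter through the shared spread, gave 3, 3 and 4. The calls of chmp5b and ftsj3 were each lost in 11 of 22 alternatives, among them without any of the 6 libraries of 12 mpf and without wild-type replicate 1 or 2 of 4 mpf, at differences of 4.77 to 5.57 for chmp5b and 4.40 to 4.65 for ftsj3, and that of nox1 without wild-type replicate 1 or 2 of 12 mpf, at 3.50 and 3.88.

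In transgenic hearts none of the 97 genes passed between the ages by limma, against 3.5% of all 400 (2% higher and 1.5% lower). An unadjusted p under 0.05 was reached by 20 of the 97, against 19% of all 400. Voom on the recovered reads called 3, with 20 at an unadjusted p under 0.05. The shares of all 400 genes under voom and the other alternative fits are not given here. The groups did not overlap for 31 of the 97, 27 of them higher at 12 mpf, against 33.5% of all 400 (22.2% higher and 11.2% lower). The smallest adjusted p was 0.0747 (limma), for armc5, with 12.7, 8.05 and 14.0 FPKM in transgenic hearts of 12 mpf and 0 in all 3 of 4 mpf (log2 difference 3.62, SE 0.99). Next among the genes with a symbol was bspry, with 33.7, 23.4 and 14.5 FPKM at 12 mpf and 0 in all 3 of 4 mpf (log2 difference 4.56, SE 1.31, adjusted p = 0.0880). The general transcription factor gene taf11 had 42.9, 29.7 and 41.3 FPKM in transgenic hearts of 12 mpf, against 8.47, 0 and 0 FPKM at 4 mpf (log2 difference 4.19, SE 1.27, adjusted p = 0.110). Libraries weighted by quality gave 4 passing genes (armc5, bspry, taf11 and the clone-named si:ch211-66c13.1), and the 6 transgenic libraries alone gave armc5 and bspry. Left-out libraries gave 3 passing genes (transgenic replicate 1 of 4 mpf, wild-type replicate 1 of 4 mpf), 2 (wild-type replicate 3 of 4 mpf) or 1 (transgenic replicate 1 of 12 mpf, transgenic replicate 2 of 4 mpf, wild-type replicate 2 of 4 mpf).

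The 74 genes with a symbol were sorted by the role of their protein. Transcription and chromatin held 15 genes, from 2.90 FPKM for znf644a to 59.0 FPKM for tfpt of a chromatin remodeller, and 0 of the 15 passed at either age. Their median log2 difference was 0.90 at 4 mpf, with 9 of 15 positive, and 0.10 at 12 mpf, with 8 positive. Among them stood the enzymes that add and remove the same repressive mark on histone H3. The methyltransferase gene ezh2 had 27.3, 37.0 and 20.8 FPKM in transgenic hearts of 12 mpf, against 26.7, 13.7 and 8.01 FPKM in wild-type hearts, while the demethylase gene kdm6a was lower there, as given above. Neither passed at 12 mpf, with log2 differences of 0.89 for ezh2 (SE 1.40) and -1.60 for kdm6a (SE 0.90), and the ezh2 groups overlapped. At 4 mpf ezh2 had 6.34, 0 and 30.3 FPKM in transgenic hearts, against 0, 0 and 20.3 FPKM in wild-type hearts. For kdm6a the values at 4 mpf were 59.1, 41.5 and 54.0 FPKM in transgenic hearts and 4.98, 61.7 and 29.0 FPKM in wild-type hearts. Both genes overlapped between genotypes at that age.

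DNA replication and division held 4 genes, gins1 of the helicase, dut of dUTP removal, skp2 of the ubiquitin ligase that clears cell cycle inhibitors, and ccsapb of the centriole. All 4 log2 differences of transgenic minus wild-type hearts were positive at both ages, with medians of 1.72 at 4 mpf and 0.45 at 12 mpf, and 0 of 4 passed. The sign was not uniform on the FPKM scale, where dut averaged 35.1 ± 14.1 FPKM in transgenic and 55.9 ± 48.1 FPKM in wild-type hearts of 4 mpf (SD, n = 3 each), and the value of skp2 at 4 mpf rested on 1 transgenic library. At 4 mpf gins1 had 86.7, 61.0 and 28.3 FPKM in transgenic hearts and 70.7, 0 and 21.9 FPKM in wild-type hearts. For dut the values were 37.9, 19.7 and 47.6 FPKM in transgenic hearts and 3.87, 98.7 and 65.2 FPKM in wild-type hearts. The gene skp2 had 13.3, 0 and 0 FPKM in transgenic hearts and was listed at 0 in all 3 wild-type hearts. The genotypes overlapped in each. At 12 mpf gins1 had 178, 237 and 139.8 FPKM in transgenic hearts, against 46.0, 153 and 111 FPKM in wild-type hearts, which overlapped as well.

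Among the 8 genes of the endoplasmic reticulum, Golgi and secretory traffic the median log2 difference at 4 mpf was 1.83, with 5 of 8 positive and 1 of 8, txndc5, passing, against 3.25% of all 400 genes. At 12 mpf it was -0.20 with 0 passing. Another gene of this group, derl2 of the degradation of misfolded proteins, was above 0 in all 12 libraries. It had 75.3, 12.0 and 14.6 FPKM in transgenic hearts of 4 mpf, against 35.2, 27.6 and 26.9 FPKM in wild-type hearts. The log2 difference was -0.30 (SE 0.89), while the mean FPKM was the higher one in transgenic hearts, at 33.9 ± 35.8 against 29.9 ± 4.60 FPKM (SD, n = 3 each), with transgenic replicate 1 above all the others. The 8 genes of endosome and lysosome had medians of 0.25 at 4 mpf and -0.06 at 12 mpf, the 8 of RNA and translation -0.04 and 0.12, and the 5 of metabolism and mitochondria -0.07 and -0.23, with 0 passing in these 3 groups at either age.

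The 10 genes of membrane signalling, channels and junctions held nox1 and mpp6a, so 2 of 10 passed at 4 mpf, against 3.25% of all 400 genes. Groups of this size describe their single genes. Their median was 0.23 at 4 mpf and -0.37 at 12 mpf. The highest of them, trpc4apa (chr11:25157374-25180330, plus strand), had 59.4, 215 and 241 FPKM in transgenic hearts of 4 mpf, against 36.6, 1.84 and 131 FPKM in wild-type hearts. The groups overlapped, with a log2 difference of 2.60 (adjusted p = 0.231 by limma). Of the 6 genes of secreted and matrix proteins 1 was positive at 4 mpf, serpinc1, and their median log2 difference was -0.94, with 0 passing. For pappaa, the gene of a protease that releases growth factors, the values were 2.63, 0 and 0 FPKM in transgenic hearts of 4 mpf and 11.0, 0 and 13.7 FPKM in wild-type hearts (log2 difference -1.87, SE 1.06). These 6 genes ranged from 4.44 to 18.8 FPKM and none was above 0 in every library.

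Of 20 lists of 429 genes for pathways and cell types, 3 held a gene of the 97. The integrated stress response and ATF targets (25 genes, 1 with values) held psph, the protein folding list of the endoplasmic reticulum (20 genes, 1 with values) held txndc5, and the leukocyte list (21 genes, 2 with values) held nox1. So 0 of 1, 1 of 1 and 2 of 2 of their measured genes passed at 4 mpf, the last with the B-cell gene cd22, and 0 at 12 mpf. Over all 20 lists 18 genes held values and 5 passed at 4 mpf, 4 higher and 1 lower in transgenic hearts, against 3.25% of all 400 genes. Such counts describe single genes, and nox1, unlike cd22, was not among the leukocyte markers used below. The lists without a gene of the 97 gave 2 of these calls, both on the erythrocyte list, 1 in each direction. Hypertrophy genes, matrix genes and fatty acid oxidation genes had no gene with values.

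Markers of 10 cell types, 65 genes in all, could hardly be used, since 4 of the 65 held values and none was among the 97. The 12 cardiomyocyte markers, myl7 included, and atf3 were not analysed here. The cardiac identity of the tissue and the expression of the transgene were therefore not checked, and the genotype is that of the labels. The B-cell marker cd22 had 91.0, 70.3 and 177 FPKM in transgenic hearts of 4 mpf and was listed at 0 in all 3 wild-type hearts. The erythroid gene hemgn had 33.8, 20.5 and 45.8 FPKM in transgenic hearts of 4 mpf, against 0, 0 and 6.09 FPKM in wild-type hearts. Both passed at 4 mpf (log2 differences 6.72 and 4.09, adjusted p = 0.00308 and 0.0285 by limma), together with nox1, txndc5 and mpp6a. The other erythrocyte list gene with values, alad of heme synthesis, moved the opposite way, with a log2 difference of -5.28 (adjusted p = 0.0101 by limma). The liver marker itih2 had 25.3, 0 and 0 FPKM in transgenic hearts of 4 mpf and 0, 0 and 32.6 FPKM in wild-type hearts, and the epithelial marker cldni had 380.3, 112 and 357 FPKM in transgenic hearts and 41.0, 65.7 and 81.5 FPKM in wild-type hearts. Neither itih2 nor cldni passed at 4 mpf (log2 differences -0.12 and 2.02, adjusted p = 0.980 and 0.0752 by limma). Summed, the 4 markers had 203 to 579.9 FPKM in transgenic hearts of 4 mpf, against 41.0 to 120.2 FPKM in wild-type hearts. At 12 mpf the sums overlapped, with 152 to 260.2 FPKM in transgenic and 116 to 163 FPKM in wild-type hearts. In every library cldni was the largest of the 4 values, so the sum mainly follows that gene and describes no joint change of the markers. The part of these markers in the differences of the 97 genes was not tested.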

How the data were processed

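RNA was measured in 12 zebrafish heart libraries, 3 for each genotype and age, prepared with a QuantSeq 3′ FWD kit and read as single-end reads of 75 bases, per the labels' protocols. The authors deposited FPKM values. Per the submitters' processing notes, Trim Galore, STAR, RSEM and DESeq2 were used with the build GRCz11. The sources used here give no versions, annotation release or strand setting. All 12 value columns matched a library. Reads were recovered by solving a factor per library from mitochondrial genes and a length per gene, and were whole within 0.0001 for all 400 genes. Opposite-strand overlap and distances between 3′ ends were computed from the table's coordinates. The gene name table held 91 of the 97 identifiers.

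The test used log2(FPKM + 1) of every gene that reached 1 FPKM in 3 or more libraries, which all 400 did. In limma 3.58.1 (R 4.3.3) the 12 libraries were fitted with 1 mean per group (eBayes with trend and robust), with two-sided tests and Benjamini-Hochberg adjustment over the 400 genes at a threshold of 0.05. Replicates were called biological by the study, and p-values rest on the spread between them, pooled over the 4 groups. A group listed at 0 in all 3 libraries adds no spread, so the p-values of such genes partly reflect values at 0. The script was run on simulated data with normal noise of equal spread in all groups. That check required only the right sign for large added changes and set no limit on false calls. Tables were made with pandas 2.3.3 under Python 3.11.15 and plots with matplotlib 3.10.9.

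The 97 genes, their roles, the lists and the tests were chosen with earlier results of these data known. Named genes were those with a symbol that passed, up to 10 in each direction (5 over both ages and for the interaction), or the 10 (5) with the smallest p where fewer passed, the 10 with the highest mean FPKM, and the 5 least and 5 most variable of those always above 0. Alternatives covered pseudocounts of 0.5 and 5 FPKM, no filter, a mean of at least 10 FPKM, median-of-ratios scaling, eBayes without robust, library weights (arrayWeights), voom on recovered reads, a replicate block, the compared groups alone and each library left out. Replicate numbers carried over between groups in the labels, with no shared animal or batch stated.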

Additional observations from a re-analysis of the deposited data

Results flagged for a closer look

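The difference between both genotype effects of mpp6a, transgenic minus wild-type hearts at 12 mpf minus the same at 4 mpf, was -5.29 on the log2(FPKM + 1) scale (SE 1.02, adjusted p = 0.0482 by limma). It was the only gene of the 97 that passed this test. The 3 transgenic hearts were the lower ones at 12 mpf and the higher ones at 4 mpf. The value rests on wild-type hearts of 4 mpf with 0.569, 0 and 0 FPKM. In that group 39 of the 97 genes were at 0 in at least 2 of the 3 libraries. The test was no longer passed in 14 of 21 alternatives, where the adjusted p reached 0.260, and the cause was not tested.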

How the results depend on the processing

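At 4 mpf 3 genes passed. The number was 0 with library weights, 0 with the compared groups alone and 2 with a pseudocount of 5 FPKM, where mpp6a was lost. It was 2 with a mean of at least 10 FPKM, which left txndc5 untested, and 3 to 7 with a library left out. At 12 mpf it was 0 in every alternative run. Over both ages 0 passed, and 0 to 2 with a library left out. For the interaction 1 passed. It was 0 with a pseudocount of 0.5 FPKM, with one of 5 FPKM, with median-of-ratios scaling, without robust eBayes and with the replicate block, and 0 to 3 with a library left out. For age in wild-type hearts 7 passed. The number was 2 with a pseudocount of 5 FPKM, 1 with library weights, 12 with voom, 3 with the replicate block and 11 with the compared groups alone, and 1 to 19 with a library left out. For age in transgenic hearts 0 passed, with 4 under library weights, 3 under voom, 2 with the compared groups alone and 0 to 3 with a library left out. The causes were not tested.

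No pairing of hearts by replicate number was seen, though deviations within groups of 3 cannot exclude a shared animal or batch. Deviations from the group means correlated at -0.41 to 0.08 between the 18 couples of the same number and at -0.19 to 0.40 between the 36 of different numbers, and the block left the 3 calls at 4 mpf. Median-of-ratios scaling moved the median log2 difference of all 400 genes by over 0.1 only for age in transgenic hearts, by -0.11. Of 34 differences of named genes, none was reversed, 8 passed, and 10 of the other 26 passed in some alternative. Most of the 97 genes rested on 10 to 99 reads in most libraries, and zeros in hearts of 4 mpf limit what could be detected.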
